A study of Homo sapiens with 6 samples.

Results

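Genes of iron storage, uptake and sensing were examined in AGS cells, a line derived from a human gastric adenocarcinoma, with and without depletion of FTO. The 10 genes were FTH1, FTL, TFRC, SLC40A1, SLC11A2, IREB2, ACO1, NCOA4, STEAP3 and FBXL5. They were taken by name from the 58174 genes of the deposited expression table, and all 10 were found. The RNA came from cells given a negative control siRNA, called si-NC, and from cells given FTO siRNA, called si-FTO, with 3 libraries each. In the labels the si-NC samples are also called wild type and the si-FTO samples FTO-/-, although the study's methods describe siRNA transfection. Nothing in the labels says whether the libraries came from separate cultures.

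Levels are in TPM, the share of all transcripts corrected for gene length, and the expression values in the table are group means only. The spread between libraries is therefore unknown, no test could be run, and the differences below are descriptions of 2 group means. Read numbers cannot be recovered from TPM, and sequencing depth is therefore unknown. Log2 ratios are those of si-FTO over si-NC after adding a pseudocount of 1 TPM, a scale that understates the difference of low genes. Folds are plain ratios of the 2 mean TPM values. A gene was counted as higher or lower when its log2 ratio was at least 1 in size, called 2-fold below although the pseudocount enters it, among the 20493 genes with a mean of at least 0.5 TPM in at least 1 group.

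Cells take up iron bound to transferrin through the transferrin receptor, reduce it in endosomes, and carry it into the cytosol. Surplus iron is stored in ferritin, a shell built of heavy and light chains, or leaves the cell through ferroportin. The iron regulatory proteins IRP1 and IRP2 bind hairpins called iron-responsive elements when iron is low. They block translation where the hairpin lies in the 5′ UTR, as in ferritin mRNA, and protect the mRNA from decay where it lies in the 3′ UTR, as in transferrin receptor mRNA. FTO belongs to the dioxygenases that use iron and 2-oxoglutarate to remove methyl groups, among them that of N6-methyladenosine in RNA.

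The hairpins are shown because elements of this form are what the iron regulatory proteins bind, and their side of the coding sequence differs between the genes below. Annotated UTRs of GRCh37 were searched on the sense strand for a C, any 5 bases, CAGTGN and 5 more bases, where the 5 bases on either side of CAGTGN pair with each other, G-U pairs included. Capitals mark the loop, CAGTG and the base after it, and 6 bases are added on each side.
FTL, 5′ UTR, exon 1, chr19:49468592-49468620, plus strand: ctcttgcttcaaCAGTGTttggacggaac
SLC40A1, 5′ UTR, exon 1, chr2:190445387-190445415, minus strand: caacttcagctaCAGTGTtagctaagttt
TFRC, 3′ UTR, exon 19, chr3:195777850-195777878, minus strand: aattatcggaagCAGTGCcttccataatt
TFRC, 3′ UTR, exon 19, chr3:195777446-195777474, minus strand: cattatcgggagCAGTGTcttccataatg
TFRC, 3′ UTR, exon 19, chr3:195777381-195777409, minus strand: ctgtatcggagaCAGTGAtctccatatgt
TFRC, 3′ UTR, exon 19, chr3:195777334-195777362, minus strand: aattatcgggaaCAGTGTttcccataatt

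FTH1 also had a match in its 5′ UTR, TFRC held 4 matches in its 3′ UTR, and the other 6 genes held none. SLC11A2 is known for an element with an extra unpaired base, which this pattern does not cover. Across the annotation, 38 of 19037 genes with a 5′ UTR (0.2%) and 142 of 19283 genes with a 3′ UTR (0.736%) had a match. UTRs differ in length, and a match of letters is not by itself a binding site.

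FTO, the targeted gene, had a mean of 33.1 TPM in si-NC against 7.27 TPM in si-FTO, and its log2 ratio was -2.05. RPGRIP1L, on the strand opposite FTO, had 10.7 and 5.57 TPM, so the remaining FTO level is uncertain. The groups also differed in many other genes. With at least 10 TPM in one group and 0 in the other, there were 177 genes of the 9655 in si-NC and 65 genes of the 9280 in si-FTO. Markers of gastric and epithelial cells were checked against the label. The 15 genes of that list summed to 128 TPM in si-NC against 5122 TPM in si-FTO, with 7 and 6 of them at 1 TPM or more. KRT8, an epithelial keratin and in si-FTO the most abundant of them, had 10.8 TPM in si-NC against 3139 TPM in si-FTO, and its partner KRT18 had 52.1 and 1851 TPM. ELF3, CLDN4 and MUC1 were also at least 2-fold higher in si-FTO. GATA4, a transcription factor of the foregut, had 36.96 TPM in si-NC and was listed at 0 in si-FTO. GATA6 and the adhesion gene CDH1 were at least 2-fold lower in si-FTO. TFF1, a secreted peptide of gastric surface cells, was listed at 0 in both groups. EPCAM, a general epithelial marker, had 1.22 and 0.113 TPM, and the keratin KRT19 was under 1 TPM in both groups. Epithelial markers were thus present in part, and which ones were present differed by group. In si-NC, ELF3 had 0.115 TPM and CLDN4 had 0.226 TPM, and in si-FTO CDH1 had 0.685 TPM. EPCAM, KRT19 and TFF1 were low or absent in both groups, so neither group showed the full set of the label. The part of these marker differences in the iron genes was not tested.

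Markers of other cell types were also summed. The hepatocyte list summed to 0.297 TPM in si-NC against 0.0621 TPM in si-FTO over 6 genes, with APOA1 the most abundant at 0.215 TPM in si-NC. The erythroid list summed to 12.3 and 12.04 TPM over 7 genes, with HBA1, the most abundant in si-NC, at 6.21 and 2.98 TPM and SLC4A1 at 0 in both groups. KLF1, an erythroid transcription factor, was its single member counted by the log2 threshold, at 0.267 and 5.83 TPM. Of the 7 macrophage markers 6 were found, and they summed to 55.3 and 32.1 TPM, most of it HMOX1, which many cell types express. CD68 was at least 2-fold higher, with 1.495 and 6.42 TPM, and the leukocyte gene PTPRC and CD163 were at 0 in both groups. The fibroblast list summed to 456 and 797 TPM over 7 genes, most of it VIM with 440 and 752 TPM. COL1A1 and PDGFRB were at least 2-fold higher, and COL3A1 was at least 2-fold lower.

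Of the 10 iron genes, 4 were at least 2-fold higher in si-FTO, 1 was lower and 5 were neither. The higher genes were the ferritin chains FTH1 and FTL, the transferrin receptor gene TFRC and the transporter gene SLC11A2. The lower gene was SLC40A1, the ferroportin gene. Among all 20493 genes compared, 2340 (11.4%) were higher and 3492 (17%) were lower. After median-ratio scaling 2786 were higher and 2885 lower, so the excess of lower genes depends on scaling. Of genes with at least 10 TPM in a group, 13.3% were higher and 15% lower, and of genes with at least 100 TPM in a group, 17.8% were higher and 9.5% lower. FTH1, FTL, TFRC and NCOA4 belong to this last class, and 3 of these 4 were higher. The median log2 ratio of the 10 genes was 0.32, against -0.20 over all genes compared. In bulk RNA, fewer cells of a type and less RNA per cell cannot be told apart.

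**Figure D1:**
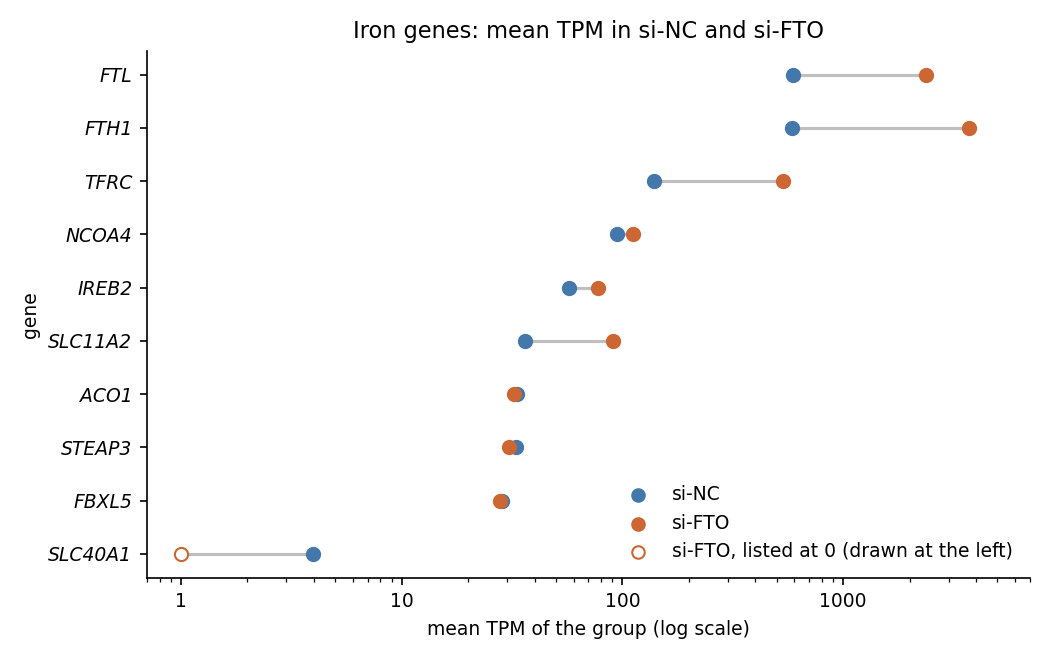
Mean TPM of each of the 10 iron genes in si-NC (blue) and si-FTO (orange) on a log axis, 1 point per group mean, with no error because the libraries were averaged by the authors. FTH1, FTL, TFRC and SLC11A2 lie to the right in si-FTO, ACO1, STEAP3 and FBXL5 nearly coincide, and SLC40A1, listed at 0 in si-FTO, is drawn as an open point at the left.

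Among the 10 genes, those of storage were the most abundant. FTH1 encodes the heavy chain, which oxidises iron on its way into the ferritin shell, and lies on chromosome 11 from 61727190 to 61735106. Its mean was 587 TPM in si-NC against 3707 TPM in si-FTO, a 6.31-fold difference with a log2 ratio of 2.66. FTL encodes the light chain, which favours iron core formation, and lies on chromosome 19 from 49468566 to 49470136. It had 594 TPM in si-NC against 2362 TPM in si-FTO, a 3.98-fold difference with a log2 ratio of 1.99. The chains were thus at nearly the same level in si-NC, while FTH1 exceeded FTL in si-FTO.

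The ratio of FTH1 to FTL mRNA was 0.989 in si-NC against 1.57 in si-FTO. Together the chains made up 0.118% of all TPM in si-NC against 0.607% in si-FTO, and their sum was 5.14-fold higher in si-FTO. By level among all genes, FTH1 ranked 197 in si-NC against 18 in si-FTO, and FTL ranked 193 and 52. Both chains carry a 5′ UTR hairpin, through which the iron regulatory proteins are known to act on translation, so these mRNA levels do not measure ferritin protein.

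Ferritin genes have many processed pseudogenes, and their reads may be shared with the parent. The table held 25 FTH1 pseudogenes, summing to 20.8 TPM in si-NC against 132 TPM in si-FTO, which is 3.55% and 3.56% of FTH1. Of the 14 compared, 8 were at least 2-fold higher in si-FTO and 0 were lower. FTH1P2, the most abundant, had 6.78 and 48.1 TPM, a 7.09-fold difference, close to that of its parent. The 16 FTL pseudogenes summed to 2.56 and 3.76 TPM. Adding the pseudogenes to their parents gave heavy to light chain ratios of 1.02 in si-NC against 1.62 in si-FTO. BEST1 overlaps FTH1 on the opposite strand and had 1.09 and 5.46 TPM, against 587 and 3707 TPM for FTH1. The library kit keeps strand, but the strand setting of the counting is not given in the sources used here, so BEST1 reads cannot be told apart from those of FTH1.

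NCOA4, the receptor that delivers ferritin to lysosomes for the release of its iron, had 94.8 TPM in si-NC against 111 TPM in si-FTO. Its log2 ratio of 0.23 was under the threshold. Ferritin and its autophagy receptor therefore differed to unequal degrees, by 5.14-fold for the summed chains and 1.17-fold for NCOA4. Of the 6 other genes of ferritin handling, 5 were compared and 0 passed 2-fold, against 28.5% of all genes compared. PCBP2 and PCBP1, which hand iron to ferritin, had log2 ratios of 0.67 and 0.75. PCBP2 was the most abundant of them, with 656 TPM in si-NC against 1046 TPM in si-FTO. FTMT, the mitochondrial ferritin gene, was listed at 0 in both groups.

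Genes of uptake were divided. TFRC, the receptor for iron-laden transferrin, lies on chromosome 3 from 195739382 to 195809024. It had 139 TPM in si-NC against 534 TPM in si-FTO, a 3.85-fold difference with a log2 ratio of 1.94. SLC11A2, also called DMT1, carries ferrous iron out of the endosome, and had 36.2 TPM in si-NC against 90.1 TPM in si-FTO, a 2.49-fold difference with a log2 ratio of 1.29. The table is at gene level, so SLC11A2 transcripts with and without the 3′ hairpin could not be separated.

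STEAP3, the endosomal reductase that prepares iron for SLC11A2, had 33.0 TPM in si-NC against 30.5 TPM in si-FTO. Its log2 ratio was -0.11, and 0.10 after median-ratio scaling of the groups, so its direction was not fixed. Both ferritin chains, TFRC and SLC11A2 were thus higher in si-FTO, with summed ferritin 8.50 times TFRC in si-NC and 11.4 times in si-FTO.

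The rest of the STEAP family showed large differences in both directions. STEAP4 was listed at 0 in si-NC and had 272 TPM in si-FTO. STEAP1 had 22.9 TPM in si-NC against 0.476 TPM in si-FTO, and STEAP2 had 3.74 TPM and was listed at 0 in si-FTO. These genes encode metalloreductases of iron and copper, although STEAP1 lacks the domain that binds NADPH. The summed TPM of the family was 59.6 in si-NC against 303 in si-FTO, and its most abundant member was STEAP3 in the first and STEAP4 in the second.

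**Figure D2:**
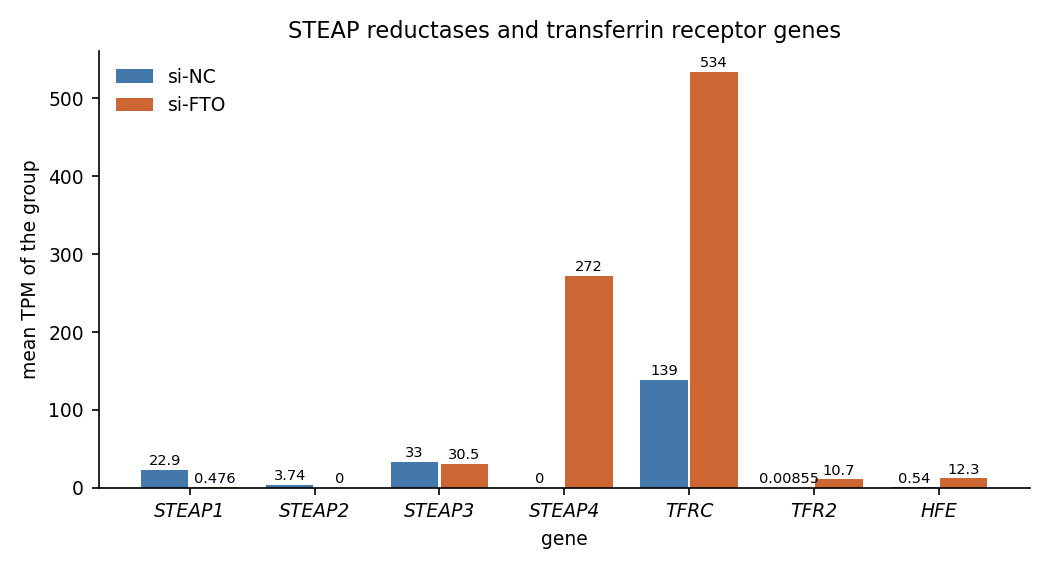
Mean TPM of the STEAP genes, the transferrin receptor genes TFRC and TFR2, and HFE in si-NC (blue) and si-FTO (orange), 1 bar per group mean with its value printed and no error available. STEAP3 is near 30 TPM in both groups, while STEAP4 and TFRC stand out in si-FTO.

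Among the 12 other genes of iron uptake and reduction, 11 were compared, of which 4 were higher and 2 lower. Over all genes compared, the shares were 11.4% higher and 17% lower. Besides the STEAP genes, those counted were TFR2, HFE and LCN2. TFR2, a second transferrin receptor best known as an iron sensor of the liver, had 0.00855 TPM in si-NC against 10.7 TPM in si-FTO. HFE, the partner of the transferrin receptors that is altered in hereditary haemochromatosis, had 0.540 and 12.3 TPM. LCN2, which binds iron-loaded siderophores, was listed at 0 in si-NC and had 9.31 TPM in si-FTO. The zinc and iron transporters SLC39A14 and SLC39A8 had log2 ratios of -0.12 and 0.08, and that of SLC39A14 became 0.09 with median-ratio scaling.

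Export was at low levels. SLC40A1, the ferroportin gene, lies on chromosome 2 from 190425316 to 190448484. It had 3.96 TPM in si-NC and was listed at 0 in si-FTO, and it was the least abundant of the 10 genes in each group. Like the ferritin chains it carries a 5′ UTR hairpin, and its mRNA difference had the opposite direction to theirs. Whether 0 is a true absence could not be judged without counts.

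Of the 10 other genes of export and of hepcidin control, 6 were compared, with 2 higher and 3 lower (11.4% and 17% over all genes). Hepcidin is the liver hormone that removes ferroportin from the membrane, and its gene HAMP was listed at 0 in both groups, as were HJV and HEPH. The ferroxidase gene CP had 0.0304 TPM in si-NC against 3.07 TPM in si-FTO. BMP6, which induces hepcidin in the liver, had 10.5 and 22.6 TPM and was the first of its list by level in si-FTO only. SMAD4, the shared mediator of BMP signals, had 12.7 TPM in si-NC and was listed at 0 in si-FTO. The inhibitor SMAD7 had 16.1 and 6.42 TPM, and ERFE, a hormone that lowers hepcidin, had 21.4 and 1.91 TPM.

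Of the sensing genes, ACO1 and FBXL5 were near equal in the groups. ACO1 encodes IRP1, which is an aconitase when it holds an iron-sulfur cluster and binds RNA when it does not. It had 33.1 TPM in si-NC against 32.3 TPM in si-FTO, with a log2 ratio of -0.03. IREB2 encodes IRP2, which is controlled by degradation, and had 57.5 and 77.2 TPM, a log2 ratio of 0.42 that became 0.63 with median-ratio scaling. FBXL5, the iron-binding subunit that sends IRP2 to degradation, had 28.5 and 28.0 TPM, a log2 ratio of -0.03. With median-ratio scaling of the groups the small ratios of ACO1 and FBXL5 became 0.17 and 0.18, so no direction is given for them. The ratio of IREB2 to ACO1 mRNA was 1.74 in si-NC against 2.39 in si-FTO.

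FBXL5 works in a ubiquitin ligase with SKP1, CUL1 and RBX1. SKP1 was the most abundant of the 6 other sensing genes in si-FTO, at 120 TPM in si-NC against 335 TPM in si-FTO, and its log2 ratio was 1.47. RBX1 had 168 and 75.6 TPM, a log2 ratio of -1.14 that became -0.93 with median-ratio scaling, and CUL1 had a log2 ratio of -0.67. The subunits of this ligase thus differed in opposite directions. These subunits serve many other substrate receptors too. Genes overlapping FBXL5, STEAP3, TFRC, SLC11A2 and IREB2 were also looked up. FAM200B, on the strand opposite FBXL5, had 25.2 and 17.8 TPM against 28.5 and 28.0 TPM for FBXL5, so the FBXL5 values are uncertain. STEAP3-AS1, ARL8BP1, RNU7-18P, U6 and ENSG00000259474 were each under 1 TPM in both groups.

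**Figure D3:**
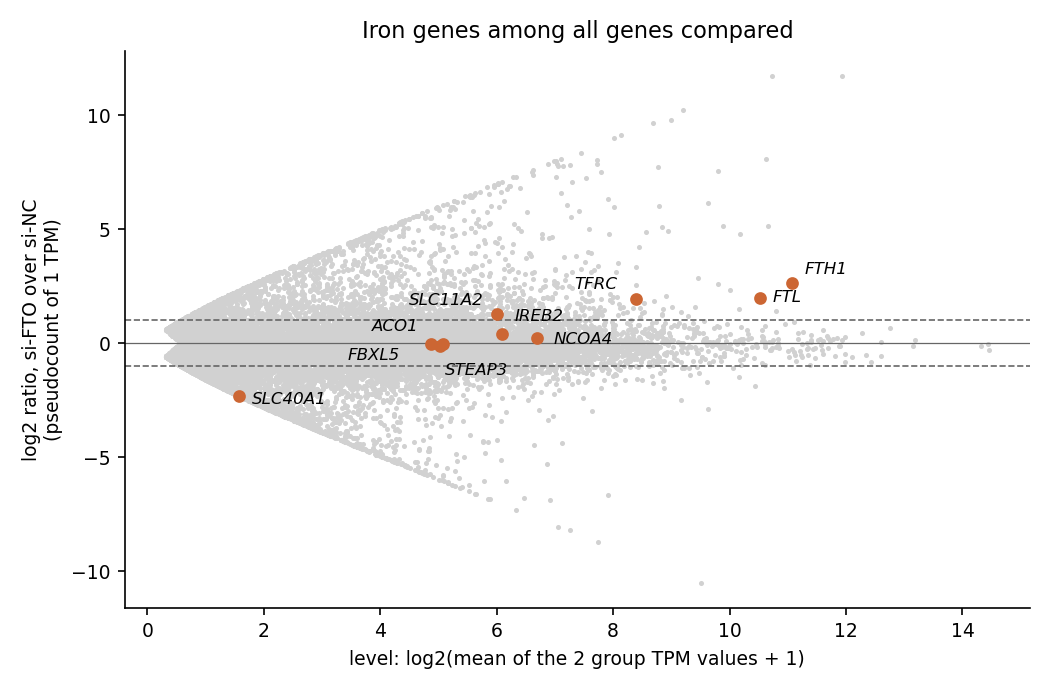
Log2 ratio of si-FTO over si-NC with a pseudocount of 1 TPM against the level, the log2 of the mean of both group values plus 1, for the 20493 genes compared (grey) and the 10 iron genes (orange); dashed lines mark 2-fold. FTH1 and FTL are among the most abundant genes and lie above the upper line with TFRC and SLC11A2, IREB2, NCOA4, ACO1, STEAP3 and FBXL5 lie between the lines, and SLC40A1 lies below.

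Ordered by level in si-NC, the genes ran FTL, FTH1, TFRC, NCOA4, IREB2, SLC11A2, ACO1, STEAP3, FBXL5 and SLC40A1. In si-FTO, FTH1 came before FTL and SLC11A2 before IREB2, and the rest of the order was as in si-NC. Without the spread between libraries, neighbours in these orders cannot be called different. By log2 ratio, FTH1 lay at the 97.0 percentile of all genes compared, FTL at 95.2, TFRC at 95.0 and SLC11A2 at 91.5. IREB2 lay at 76.5, NCOA4 at 69.9, and ACO1, STEAP3 and FBXL5 lay between 54.7 and 58.7. SLC40A1 lay at 4.57. Relative to the median of all genes, the log2 ratio was 2.86 for FTH1, 2.19 for FTL, 2.14 for TFRC and 1.49 for SLC11A2. For SLC40A1 it was -2.11.

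The hairpin was then set beside the levels. The 3 genes with a 5′ UTR match included both ferritin chains, which were higher, and SLC40A1, which was listed at 0 in si-FTO. TFRC, the gene with matches in the 3′ UTR, was higher. Among all genes compared, 32 with a 5′ UTR match had a median log2 ratio of -0.27, with 4 higher and 8 lower, and 126 with a 3′ UTR match had a median of -0.21, with 15 higher and 21 lower. Both medians were near the -0.20 of all genes, of which 11.4% were higher and 17% lower. Of the 5 other mRNAs known for such an element, 4 were compared, with 0 higher and 1 lower. The lower gene was CDC14A, a phosphatase gene with a 3′ UTR match. It had 14.9 TPM in si-NC against 1.68 TPM in si-FTO, a difference opposite to that of TFRC. Its match lies in 1 annotated transcript, against 10 for each match of TFRC, and CDC14A transcripts with and without it could not be separated.

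Iron is consumed in heme and in iron-sulfur clusters. Of 9 genes of heme synthesis, 8 were compared, with 0 higher and 3 lower. The lower genes included CPOX, with 34.9 TPM in si-NC against 8.10 TPM in si-FTO, and FECH, the enzyme that inserts iron into the ring, with 30.2 and 11.3 TPM. ALAS1, the first enzyme of the pathway outside erythroid cells, had 67.0 and 70.7 TPM. The most abundant gene was UROD, with 147 and 131 TPM. The list's median log2 ratio of -0.19 was near that of all genes, of which 11.4% were higher and 17% lower.

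Of 9 genes of heme breakdown and transport, all were compared, with 1 higher and 2 lower, or 3 higher and 1 lower under median-ratio scaling. Without that scaling, 11.4% of all genes compared were higher and 17% lower. HMOX1, the inducible enzyme that frees iron from heme, had 53.2 TPM in si-NC against 25.2 TPM in si-FTO, with a log2 ratio of -1.05. Under median-ratio scaling this ratio fell short of the threshold, at -0.84. PGRMC1, a heme-binding membrane protein, had 385 and 144 TPM. BLVRB, a biliverdin reductase, had 54.9 and 156 TPM.

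Of the 19 genes of mitochondrial iron and iron-sulfur cluster assembly, 0 were higher and 2 were lower, among them IBA57, with 9.05 and 2.97 TPM. The most abundant, HSPA9, had 490 TPM in si-NC against 479 TPM in si-FTO. Of the 9 genes of cluster assembly in the cytosol, 1 was higher and 0 were lower. The higher gene was CIAO2A, with 84.0 and 199 TPM, whose protein is known to act in the maturation of IRP1 and the stability of IRP2. It was also the most abundant of its list in si-FTO. Beside the counts of both lists, the shares over all genes compared were 11.4% higher and 17% lower.

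**Figure D4:**
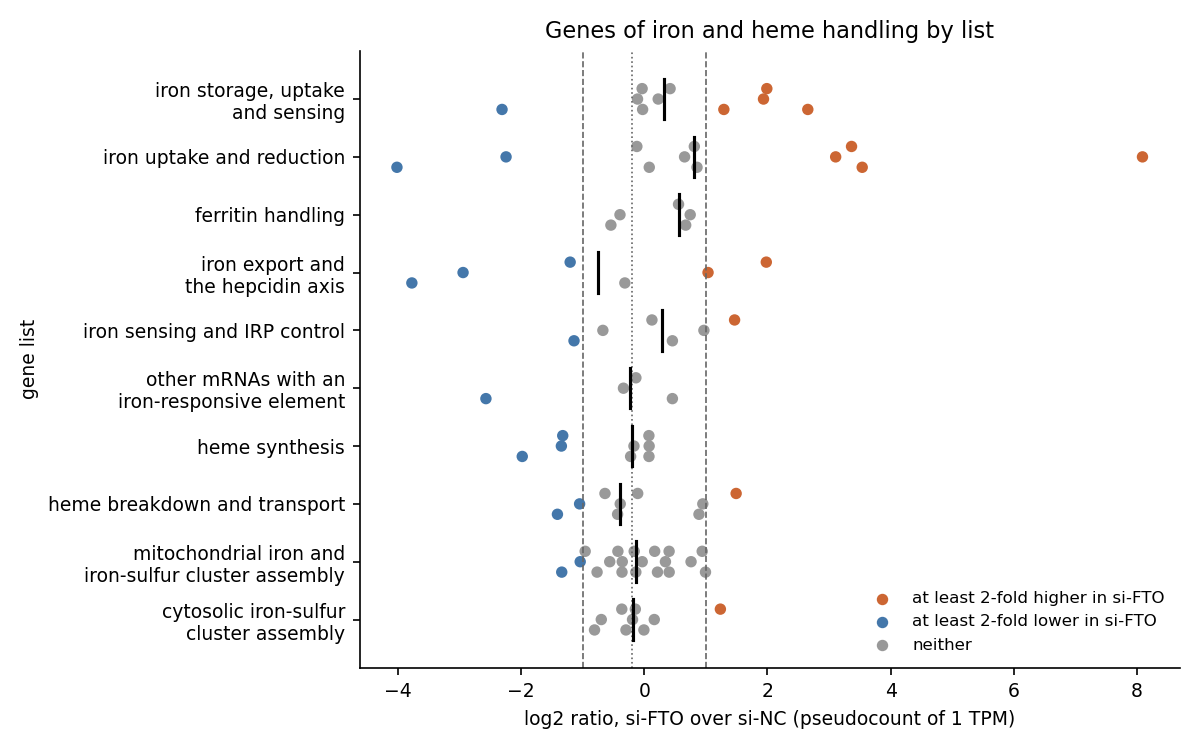
Log2 ratio of si-FTO over si-NC with a pseudocount of 1 TPM for each gene compared in the 10 iron genes and the 9 other lists; orange points are at least 2-fold higher, blue points at least 2-fold lower, black bars are list medians, dashed lines mark 2-fold and the dotted line the median of all genes. Iron uptake and reduction spans the widest range.

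Over all 83 genes of the other lists, 76 were compared, with 9 higher and 14 lower. With median-ratio scaling the split was 15 higher and 11 lower. The share past 2-fold in either direction was 30.3%, near the 28.5% of all genes compared. Their median log2 ratio was -0.14.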

How the data were processed

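RNA of 6 AGS libraries, 3 per group, was sequenced, and samples were grouped by their titles. The values deposited by the authors are TPM, averaged over each group, for 58174 genes. According to the study's methods, reads were mapped to hg19 with Bowtie and quantified with RSEM, while the submitters' processing notes name HISAT2; versions and annotation are not given in the sources used here. TPM sums to a fixed total, so a large difference in some genes shifts the others. The authors' columns of fold changes, p-values and q-values, and a second table selected by them, were not used.

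Entries of 0.0001 TPM were taken as 0. Symbols matched 55726 identifiers. Log2 ratios used a pseudocount of 1 and a minimum of 0.5 TPM in at least 1 group, and ratios of 1 or more in either direction on the log2 scale were counted. Alternatives were a pseudocount of 0.1, other minimums, median-ratio scaling, quantile normalization and another threshold. Gene positions, UTRs and hairpins come from GENCODE lifted to GRCh37, and promoters from RefSeq (GRCh38.p14). The iron genes and all lists were chosen with earlier results of these data known. Named were the 10 genes, FTO, overlapping genes and, of each other list, genes past 2-fold and the most abundant one; others were named after their values were seen. Some list genes, although counted, and 1 hairpin sequence are not reported here. Python 3.11.15, numpy 2.4.6, pandas 2.3.3 and matplotlib 3.10.9 were used, and the calculation was tested on simulated data.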

Additional observations from a re-analysis of the deposited data

How the results depend on the processing

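No paired analysis was possible because the table holds 1 mean per group, and for the same reason no replicate could be left out. Spread and depth are unknown for every value. FTH1, FTL, TFRC and SLC11A2 were counted as higher under each of the 8 alternatives. Their log2 ratios were 2.60 to 2.87, 1.92 to 2.20, 1.86 to 2.15 and 1.29 to 1.501. Only the smaller pseudocount, median-ratio scaling and quantile normalization could alter these ratios. These genes were above every minimum, past the stricter threshold and not among entries read as 0. The remaining alternatives therefore could not change their ratios or calls, and say nothing about how stable these are. The count of lower genes was 1, and 0 at a minimum of 5 TPM or of 10 TPM (the last chosen after seeing the data), because SLC40A1 was then not compared. Of the other iron lists, 9 genes were higher and 14 lower. This became 15 higher under median-ratio scaling and under quantile normalization, and 21 higher and 22 lower at a log2 ratio of at least 0.5. Scaling removes the shift of -0.20 in the median of all genes, which was -0.02 after median-ratio scaling. The heavy to light chain ratio was 0.982 for si-NC and 1.57 for si-FTO under quantile normalization, and 1.02 and 1.62 with pseudogenes added.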

Other observations

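The surroundings of the iron genes were read from the 20 nearest genes compared on the same chromosome. Over all genes compared, 11.4% were higher and 17% lower. Around FTL, 0 of these 20 genes were at least 2-fold higher and 9 were lower, with a median log2 ratio of -0.83, while FTL itself was 3.98-fold higher. Around TFRC, 1 was higher and 1 lower, with a median of 0.07. Around FTH1 the median was 0.42, with 6 higher and 2 lower, and around SLC11A2 it was 0.53, with 5 higher and 0 lower. FECH, of the heme synthesis list, lay among lower genes: 13 of its 20 neighbours were at least 2-fold lower, with a median of -1.34, about the -1.35 of FECH. Other list genes differed from their surroundings. CDC42BPA had 10 lower neighbours and a median of -0.88, against its own -0.14. HERC2 had 9 lower neighbours and a median of -0.83, against its own 0.56. Around the genes that were neither, the counts were 1 higher and 7 lower for FBXL5, 2 and 6 for STEAP3 and 1 and 5 for IREB2. They were 2 and 4 for NCOA4, and 5 and 0 for ACO1. Whether any of these counts differ from the shares over all genes was not tested. Around SLC40A1, 2 were higher and 2 lower.

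Promoter windows from RefSeq, 250 bases before to 50 after the start, were present for 9 of the 10 genes and were searched on both strands. FTH1 had no window and was not searched. The core of the hypoxia response element, ACGTG, occurred in 21.4% of 35116 windows and in those of FTL, TFRC and FBXL5. In TFRC it begins 88 bases before the start, as gcgagcgtACGTGcctcagga with the core in capitals. The core of the antioxidant response element, TGACNNNGC, occurred in 13.3% of windows and in those of NCOA4 and FBXL5. HIF1A had 44.5 TPM in si-NC against 88.0 TPM in si-FTO, and EPAS1 had 20.8 and 28.9 TPM. The log2 ratio of HIF1A was 0.97, under the threshold, and 1.18 with median-ratio scaling. A match of letters is a description of the window and not a binding site.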
